A study of Mus musculus with 12 samples.

Results

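The Kruppel-like factors are described here as 10 genes, Klf2, Klf4, Klf5, Klf6, Klf9, Klf10, Klf11, Klf13, Klf14 and Klf15, out of the 17 Klf genes and 28244 genes listed in an RNA sequencing table. They were taken as a family whose members moved in opposite directions at day 10 of a culture series, so they were chosen by their day 10 values, which are given without a test. Cells came from the heads and condyles of the femurs and tibiae of C57/BL6 pups aged 5 or 6 days, for which the labels name no transgene or deletion, and all of them were grown as pellets in chondrogenic medium for 7 days. They were harvested at that point (D7, 0 days of osteogenic medium) or after 1 day (D8), 3 days (D10) or 21 days (D28) in osteogenic medium. Each time point had 3 replicate libraries, so there were 12 in all. The labels call the cells mesenchymal progenitors and do not say whether replicates came from separate cultures or litters, so the p-values measure the spread between these libraries, which may be technical. Since whole pellets were sequenced, fewer cells of one type and less RNA per cell cannot be told apart.

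Kruppel-like factors are transcription factors that bind CACCC and GC-rich DNA through zinc fingers at their carboxyl end. Some mainly activate genes, such as Klf2, Klf4, Klf5, Klf6 and Klf15. Others recruit the Sin3 corepressor and mainly repress, among them Klf9, Klf10, Klf11, Klf13, Klf14 and Klf16. Klf2 is best known for keeping endothelium and naive lymphocytes quiescent, Klf4 as a pluripotency factor, and Klf10 and Klf11 as early genes of transforming growth factor beta. Klf9 and Klf15 respond to glucocorticoids, and Klf15 drives genes of amino acid and glucose metabolism in muscle, liver and fat.

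The values are log2 of an equalized read count plus 1. The equalization gave every library nearly the same sorted values, so that original library totals are not kept. Between 11055 and 12383 genes were at 0 in a library, and a single read was worth from 0.50 to 1.81 on the log2 scale. Both upper ends belong to D10 replicate 1, which makes it the shallowest library by these measures. Such low levels cover counting error only. All 7 chondrocyte markers searched were detected at every time point, with Col2a1, the cartilage collagen gene, at the top of the scale at D7, D8 and D28, and at 19.87 in each of the D10 libraries. Col2a1 made up most of the sum of the chondrocyte markers at every time point. Since equalized values follow rank, that sum mainly gives the rank of Col2a1 and not an amount of cartilage RNA. The log2 of that sum was 21.17 to 21.18 at D7 and 21.12 to 21.28 at D8. It was 20.03 to 20.09 at D10 and 21.16 to 21.20 at D28. All 10 members were among the 17674 genes that passed the filter on low values (log2 of 1 or more in 3 or more libraries).

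Stretches before the start of 5 members are shown because they hold letters that transcription factors of the listed pathways can bind. RefSeq promoter windows (GRCm38.p6, 250 bases before to 50 after a start) matched 7 of the 10 members, namely Klf2, Klf4, Klf6, Klf9, Klf11, Klf13 and Klf15. Capitals mark a match to the MEF2 consensus in Klf2 and CACGTG, the E-box that clock and MYC family factors can bind, in the others.
Klf2 (chr8:72318812-72319032, plus strand): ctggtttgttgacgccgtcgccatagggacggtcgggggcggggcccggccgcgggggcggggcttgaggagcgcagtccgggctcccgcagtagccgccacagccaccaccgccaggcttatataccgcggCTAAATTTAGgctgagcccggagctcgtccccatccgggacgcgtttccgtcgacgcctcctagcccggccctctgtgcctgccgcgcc
Klf15 (chr6:90462326-90462578, plus strand): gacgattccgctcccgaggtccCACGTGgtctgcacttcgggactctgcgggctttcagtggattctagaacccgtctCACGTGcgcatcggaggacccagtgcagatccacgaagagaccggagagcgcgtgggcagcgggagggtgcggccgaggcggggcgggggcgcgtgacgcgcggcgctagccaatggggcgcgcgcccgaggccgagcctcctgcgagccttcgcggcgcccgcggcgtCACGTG
Klf4 (chr4:55532622-55532687, minus strand): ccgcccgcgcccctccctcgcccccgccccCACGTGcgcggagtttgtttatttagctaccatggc
Klf6 (chr13:5861416-5861481, plus strand): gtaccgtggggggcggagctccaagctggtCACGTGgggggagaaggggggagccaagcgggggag
Klf11 (chr12:24651127-24651192, plus strand): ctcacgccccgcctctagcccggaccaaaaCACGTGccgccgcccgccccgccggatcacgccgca
The windows were searched on both strands for 5 motifs, none of which contains another. CACGTG was present in 4 of 7 member windows and in 7.15% of 32851 promoters of the same length. Klf15 held it 3 times, at positions -228, -172 and -3 from the RefSeq start, and Klf4 (-182), Klf6 (-43) and Klf11 (-214) held it once. The MEF2 consensus, the element through which MEF2 factors act on Klf2 in other cells, was found in Klf2 only (-118), and in 3.19% of all promoters. GGGCGG was in 6 of 7 windows against 35.7% of all, and CACCC in 4 of 7 against 57.5%. The glucocorticoid response element consensus was in 0 of 7, against 0.222% of all. The member windows were GC-rich, at 63.0% to 77.7% against a median of 52.7% for all promoters, and the motif counts were not adjusted for this. A match is a description of letters and not of a binding site.

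At D10 the family split. Against D7, 4 members were higher by at least 1 on the log2 scale without overlap of replicates (Klf4, Klf6, Klf10 and Klf11), and 3 were lower by as much (Klf2, Klf14 and Klf15). Over all genes tested, 8.95% were higher and 10.8% lower by this measure, and nothing is read from the members' counts because the choice of members used them. Klf15, with -1.20, and Klf10, with 1.24, were the smallest of these, and the largest under that size were Klf9, with 0.57, and Klf13, with -0.54. Klf9 lay above D7 and Klf13 below it without overlap, and only Klf5 overlapped.

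**Figure D1:**
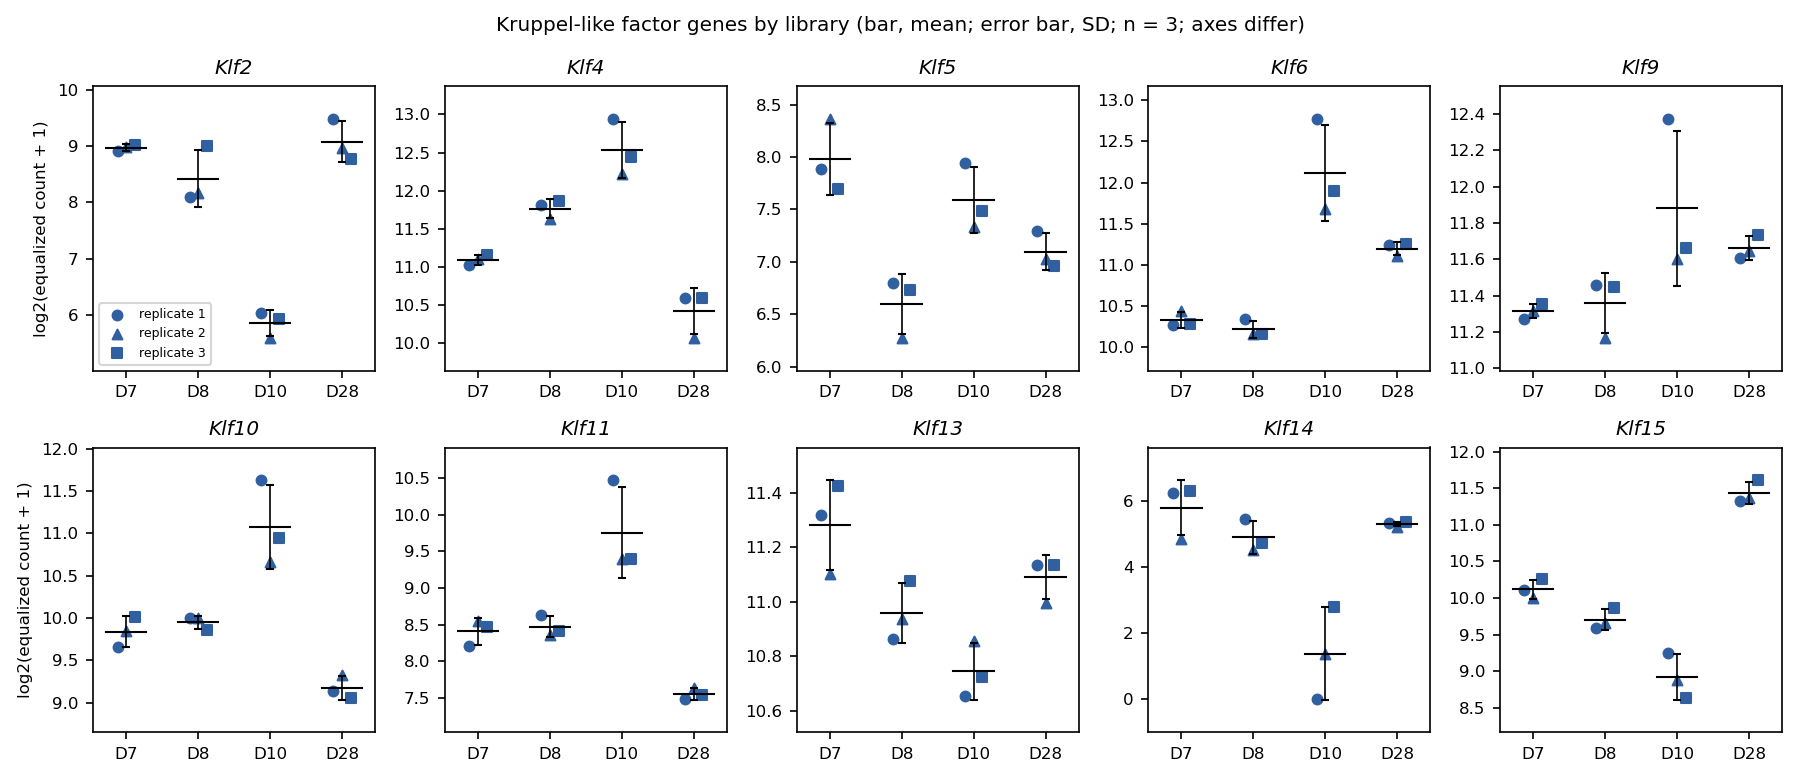
Log2 values of the 10 genes in each of the 12 libraries by time point, with the mean and SD of 3 replicates and a separate vertical axis for each gene. Klf2, Klf14 and Klf15 reach their lowest values at D10, where Klf4, Klf6, Klf10 and Klf11 reach their highest, and D10 replicate 1 is the top D10 library for these 4 genes.

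Klf2 (ENSMUSG00000055148, GRCm38 chr8:72319033-72321656, plus strand) had the largest difference at D10 among the abundant members. Its log2 values were 8.91, 8.98 and 9.03 at D7, 8.10, 8.17 and 9.00 at D8, 6.04, 5.59 and 5.93 at D10, and 9.48, 8.96 and 8.78 at D28. Every D10 library lay more than 2 units under every other library, and the D7 and D28 ranges overlapped. The D10 mean was 8.67-fold under that of D7, and the D28 mean was within 0.10 of that of D7 (standard error 0.23, adjusted p = 0.77, limma). The difference between D8 and D28, 0.65, had an adjusted p of 0.033 (limma) and did not reach the fold threshold. Klf2 marks endothelium, whose markers were mixed. Of 7, the D10 mean was above that of D7 for 3 and below it for 4, with Vwf at 4.93 ± 0.26 (SD, n = 3) at D7 and 8.65 ± 0.06 (SD, n = 3) at D10 and Emcn at 3.72 ± 0.59 and 1.84 ± 1.78 (SD, n = 3). The log2 of their sum, most of which was Vwf at D10, was 5.77 to 6.36 at D7, 8.05 to 8.78 at D8, 8.64 to 9.01 at D10 and 4.52 to 5.89 at D28, with Tie1 at 0 in all D10 libraries. Their part in the course of Klf2 was not tested.

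Klf14 (ENSMUSG00000073209, chr6:30956023-30959078, minus strand), an intronless gene known for its maternal expression and for its link to fat metabolism, was the least abundant member. Its log2 values were 6.24, 4.86 and 6.32 at D7, 5.47, 4.51 and 4.73 at D8, 5.33, 5.23 and 5.36 at D28, and 0, 1.37 and 2.79 at D10. The D10 values stand for 0, 1 and 4 reads, and the lowest D7 library held 30 reads. The D10 libraries lay under all others, with a difference of -4.42 from D7. This size depends on how near-zero values are handled, since it was -2.93 when values below 2.87, where 3 reads stood in the shallowest library, were set to 2.87. Klf14 did not pass the test in any comparison that left D10 out, with log2 fold changes of -0.91 for D8 against D7, -0.50 for D28 against D7 and 0.40 for D28 against D8. Single libraries moved these, with a range of -1.38 (without D7 replicate 2) to -0.65 (without D7 replicate 3) for the first, -0.98 to -0.24 without the same libraries for the second, and 0.21 (without D8 replicate 2) to 0.69 (without D8 replicate 1) for the third.

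Klf15 (ENSMUSG00000030087, chr6:90462576-90475238, plus strand) was lower at D10 and rose at D28. Its log2 values were 10.11, 10.00 and 10.26 at D7, 9.59, 9.65 and 9.87 at D8, 9.24, 8.89 and 8.63 at D10, and 11.33, 11.37 and 11.61 at D28. The ranges of the 4 time points did not overlap. D28 exceeded D7 by 2.49-fold, or 1.32 on the log2 scale (standard error 0.14, adjusted p = 3.6e-06, limma), and it was the only member called in that comparison, where 17.3% of all genes were. Against D8 it rose by 3.33-fold, or 1.73 on the log2 scale (standard error 0.14, adjusted p = 1.55e-07, limma), in a comparison that called 19.7% of all genes.

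Fat cell markers moved with Klf15. All 6 of 6 adipocyte markers were higher at D28 than at D7 (8.63% of all genes were), with a median log2 fold change of 4.53 against -0.03 over all genes tested, and all 6 were higher than at D8 (10.0% of all genes), with a median of 6.47 against -0.08. The log2 of their sum was 11.91 to 12.14 at D7, 10.72 to 11.18 at D8, 9.72 to 10.38 at D10 and 15.34 to 15.80 at D28, and Lep was at 0 in all D10 libraries. Adipoq, the gene of the fat cell hormone adiponectin, went from 7.06 ± 0.54 (SD, n = 3) at D7 to 12.50 ± 0.23 (SD, n = 3) at D28. Cfd, the adipsin gene, rose by 9.20 on the log2 scale between the same time points (standard error 0.34, adjusted p = 5.86e-11, limma). The part of fat cells in the rise of Klf15 was not tested.

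**Figure D2:**
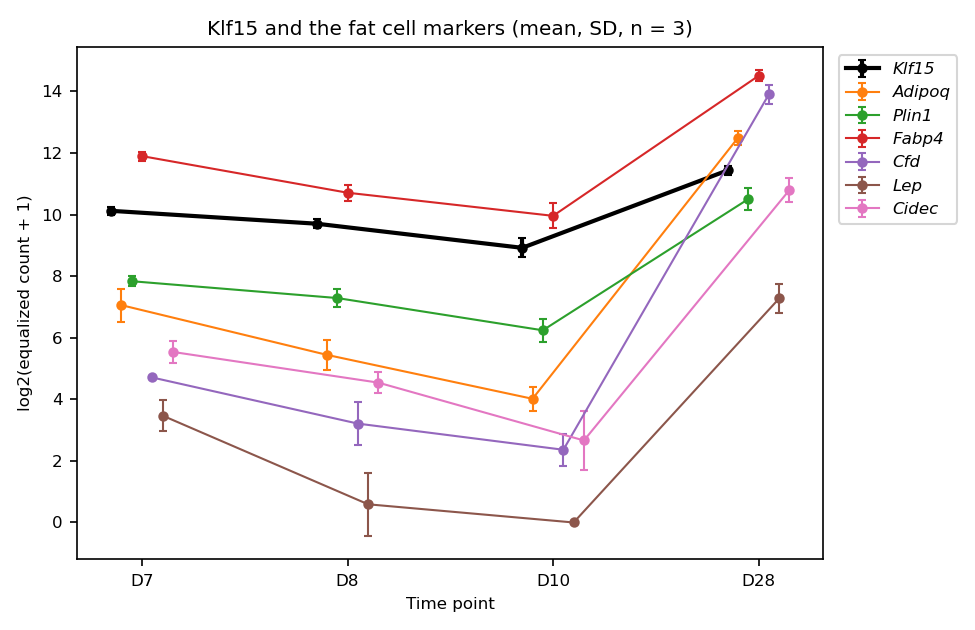
Mean log2 value and SD of 3 replicates at each time point for Klf15 (thick black line) and the 6 fat cell markers, with points shifted sideways for legibility. Klf15 and the 6 markers reach their lowest mean at D10 and their highest at D28, and Klf15 spans less of the scale than any marker.

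Klf4 (ENSMUSG00000003032, chr4:55527143-55532466, minus strand) had its highest values at D10 and its lowest at D28. Its log2 values were 11.03, 11.10 and 11.16 at D7, 11.81, 11.62 and 11.86 at D8, 12.94, 12.22 and 12.44 at D10, and 10.60, 10.07 and 10.60 at D28. No range overlapped another. D8 exceeded D7 by 0.67 (standard error 0.17, adjusted p = 0.0102, limma), under the fold threshold of 1. From D8 to D28 it fell by 1.34 on the log2 scale (standard error 0.17, adjusted p = 1.11e-05, limma), a 2.54-fold decrease, and at D28 it was 0.67 under D7 (adjusted p = 0.00504, limma).

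Klf10 (ENSMUSG00000037465, chr15:38291463-38300706, minus strand) and Klf11 (ENSMUSG00000020653, chr12:24651274-24662789, plus strand), the closest relatives among the repressors, followed nearly the same course. Klf10 had log2 values of 9.65, 9.84 and 10.02 at D7, 9.99, 10.00 and 9.86 at D8, 11.63, 10.66 and 10.94 at D10, and 9.13, 9.32 and 9.06 at D28. Klf11 had 8.20, 8.55 and 8.46 at D7, 8.63, 8.36 and 8.42 at D8, 10.47, 9.40 and 9.40 at D10, and 7.48, 7.64 and 7.54 at D28. Both overlapped between D7 and D8, stood above all other libraries at D10 and lay below all other libraries at D28. Centred over the 12 libraries, each was the gene nearest to the other among 12180 candidates with a mean log2 value of at least 5. Their root mean square difference was 0.161, and Klf4 was the next nearest member to either, at 0.309 and 0.313. This measure includes the D10 values by which the members were chosen, so it is a description and not a test. The D28 values were under D7 by 0.67 for Klf10 (adjusted p = 0.00984, limma) and 0.85 for Klf11 (adjusted p = 0.00722, limma), neither of which reached the fold threshold.

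Klf6 (ENSMUSG00000000078, chr13:5861482-5870394, plus strand), a widely expressed factor induced by injury, was highest at D10 and lay between D7 and D10 at D28. Its log2 values were 10.27, 10.44 and 10.28 at D7, 10.34, 10.16 and 10.16 at D8, 12.77, 11.68 and 11.90 at D10, and 11.24, 11.10 and 11.25 at D28. D7 and D8 overlapped, and D28 lay above both and below D10. D28 exceeded D7 by 0.87 (standard error 0.20, adjusted p = 0.00245, limma) and D8 by 0.98 (standard error 0.20, adjusted p = 0.000811, limma), both just under the fold threshold. The second difference passed it, at 1.09, when the values were rescaled by median of ratios.

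How far members stood above D7 at D10 depended on 1 library. D10 replicate 1 was the highest D10 library in all 5 of the members that lay above D7, and in 58.9% of the 1582 genes that were higher at D10 than at D7 by at least 1 without overlap. Without it, the D10 to D7 differences were 1.46 for Klf6, 1.23 for Klf4, 0.99 for Klf11, 0.96 for Klf10 and 0.32 for Klf9, so that 5 in place of 7 members differed by at least 1. The signs did not change, and the differences of Klf2, Klf15 and Klf14 were -3.21, -1.36 and -3.73.

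Klf5 (ENSMUSG00000005148, chr14:99298691-99315036, plus strand), a growth-promoting factor of epithelium and smooth muscle that also acts early in fat cell formation, was lower already on the first osteogenic day. Its log2 values were 7.88, 8.36 and 7.70 at D7, 6.80, 6.27 and 6.73 at D8, 7.94, 7.34 and 7.48 at D10, and 7.30, 7.02 and 6.97 at D28. The D8 libraries lay under all others. It fell by 1.38 on the log2 scale from D7 to D8 (standard error 0.22, adjusted p = 0.00048, limma), a 2.60-fold decrease, and was the only member called in D8 against D7, where 7.04% of all genes were. At D10 it stood 0.98 above D8 and overlapped D7, and at D28 it was 0.89 below D7 (adjusted p = 0.00553, limma). Klf5 is an epithelial gene, and the log2 of the sum of 6 epithelial markers was 6.26 to 7.05 at D7 and 7.26 to 7.84 at D8. It was 8.46 to 8.67 at D10, most of which was Krt18, and 5.43 to 7.72 at D28. From D8 to D10 the mean of Krt18 went from 6.23 to 8.31. The mean of each other epithelial marker was lower at D10 than at D8, with Epcam at 5.64 and then 3.89, and Krt5 and Krt14 were at 0 in all D10 libraries. In D8 against D7, 0 of these 6 markers were called, and 4 of 6 fat cell markers were lower (3.81% of all genes). The part of these cells in the course of Klf5 was not tested.

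Klf9 and Klf13, both near-ubiquitous repressors, varied least. Klf9 (ENSMUSG00000033863, chr19:23141226-23168134, plus strand) had log2 values of 11.27, 11.32 and 11.35 at D7, 11.46, 11.17 and 11.45 at D8, 12.37, 11.60 and 11.66 at D10, and 11.61, 11.65 and 11.73 at D28. Klf13 (ENSMUSG00000052040, chr7:63886351-63938915, minus strand) had 11.32, 11.10 and 11.42 at D7, 10.86, 10.94 and 11.08 at D8, 10.65, 10.86 and 10.72 at D10, and 11.14, 11.00 and 11.14 at D28. Klf9 had its highest mean and Klf13 its lowest at D10, and neither was called in the 3 comparisons without D10. For Klf13 the difference between D7 and D8, -0.32, had an adjusted p of 0.0415 (limma), and for Klf9 the largest of these differences was 0.35 (adjusted p = 0.10, limma). Klf13 overlaps Gm27252 and E030018B13Rik on the other strand and Klf9 holds Mir1192, and whether counting used strand is not given in the sources used here. No pair of Klf genes shared a run of 50 identical transcript bases.

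The 3 comparisons without D10 called few members. At D8, 0 members were higher than at D7 (3.23% of all genes were) and 1 was lower (3.81%), with 1 higher and 4 lower at an unadjusted p under 0.05 (limma, 18.3% and 14.9% of all genes). At D28, 1 was higher than at D7 (8.63% of all genes) and 0 were lower (8.66%), with 3 and 4 at an unadjusted p under 0.05 (limma, 21.3% and 24.0% of all genes). Between D8 and D28, which shares no library with the D10 to D7 contrast, 1 was higher (Klf15, 10.0% of all genes) and 1 lower (Klf4, 9.70%), and 19.7% of all genes were called. At an unadjusted p under 0.05, 4 were higher and 3 lower in this comparison (limma, 20.4% and 27.6% of all genes). By the call rule, the members' shares, 1, 1 and 2 of 10, were near the backgrounds. Their median log2 fold changes were -0.22, -0.35 and 0.35 for D8 against D7, D28 against D7 and D28 against D8, beside 0.03, -0.03 and -0.08 over all genes tested.

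**Figure D3:**
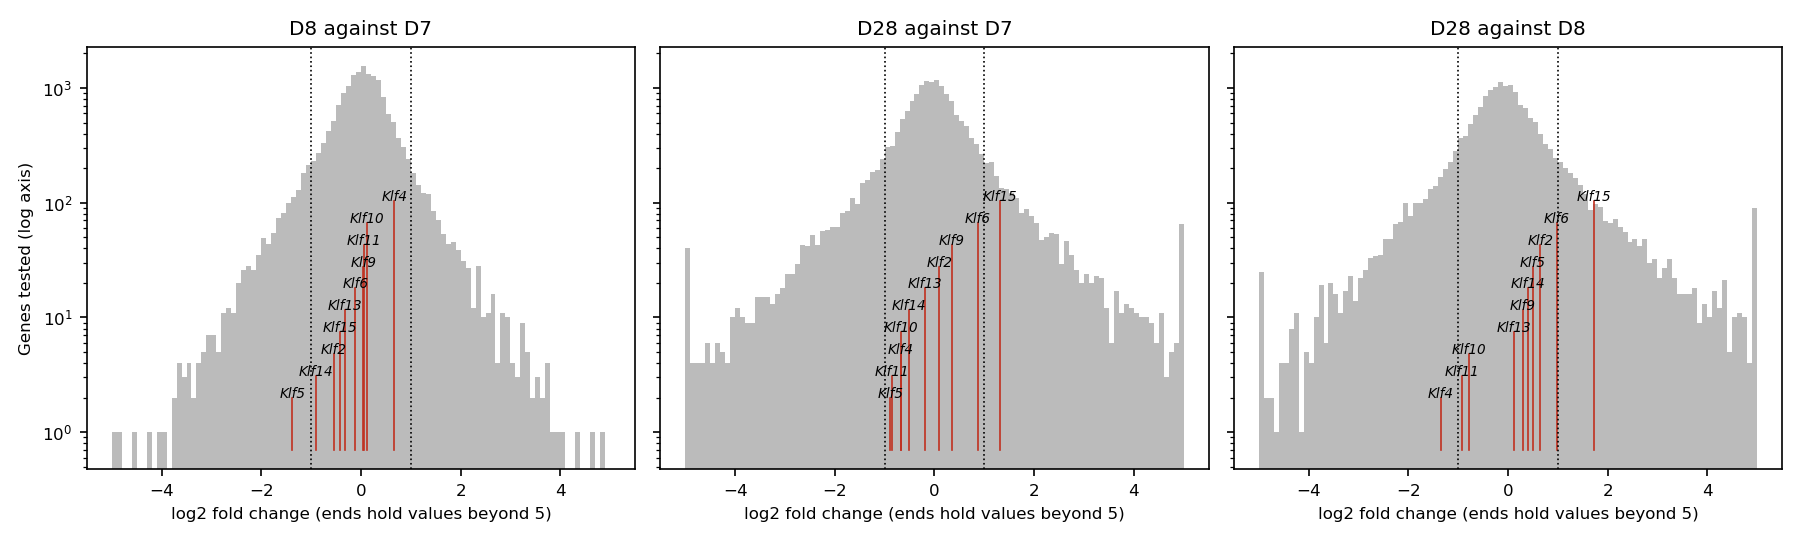
Number of tested genes by log2 fold change in bins of 0.1 (log axis) for the 3 comparisons without D10, with the 10 members marked by red lines whose height only separates the labels, and dotted lines at the fold threshold of 1 in either direction. The members lie within the bulk of all genes, and Klf5, Klf15 and Klf4 are the ones outside the dotted lines.

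Scaled to the length of annotated exons, the order of the upper members shifted, while Klf10, Klf11, Klf5 and Klf14 held the last 4 places at both D7 and D28. In equalized counts per kb, Klf4 led at D7 with 718 ± 31.7 (SD, n = 3), followed by Klf9 with 529 and Klf15 with 400.0. Klf13 (332), Klf6 (293) and Klf2 (272) followed with ranges that overlapped from neighbor to neighbor, then Klf10 (219.8), Klf11 (78.3), Klf5 (49.4) and Klf14 (19.8). At D10 Klf4 was at 1987 ± 529 (SD, n = 3), and its range overlapped that of Klf6 at 1070 ± 459 (SD, n = 3), while Klf2 was at 31.1, in a range shared with Klf5 at 37.4. At D28 Klf15 was first, with 997 ± 106 (SD, n = 3), apart from Klf9 with 674 ± 30.8 (SD, n = 3). Klf6 (536), Klf4 (456), Klf2 (298) and Klf13 (289.5) overlapped from neighbor to neighbor at that time.

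**Figure D4:**
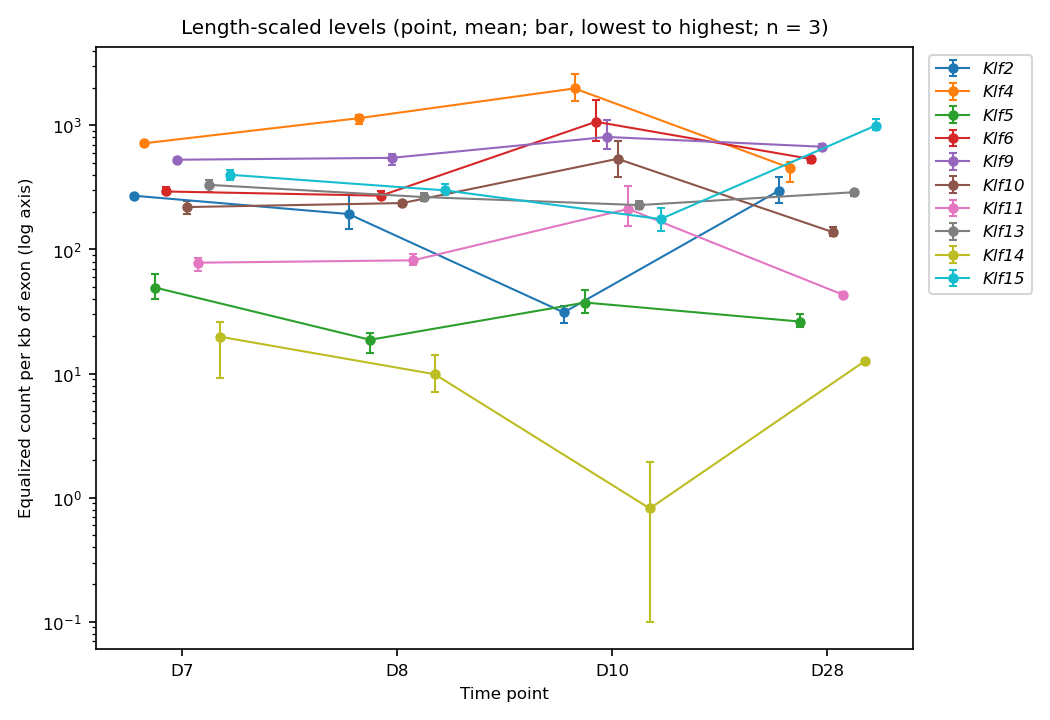
Equalized count per kb of annotated exon (log axis) for the 10 genes at each time point, with the mean as a point and the lowest to highest of 3 replicates as a bar; the bar of Klf14 at D10 reaches 0 and is drawn down to 0.1. Klf4 leads at D7 and D10 and Klf15 at D28, and Klf2 and Klf14 are far lower at D10 than at the other time points.

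The other 7 Klf genes included 1 with a course like that of Klf10 and Klf11. Klf16, a Sin3-binding repressor, had log2 values of 8.81, 8.55 and 8.72 at D7, 9.17, 8.84 and 8.89 at D8, 10.98, 9.93 and 10.35 at D10, and 7.72, 7.45 and 8.12 at D28. It stood above all other libraries at D10 and below all others at D28, and fell by 1.20 from D8 to D28 (standard error 0.22, adjusted p = 0.000407, limma). Klf1, Klf3, Klf7, Klf8 and Klf12 were not called in the 3 comparisons without D10, and their differences between D10 and D7 ranged from -0.50 for Klf12 to 0.38 for Klf8. Klf17 held at most 2 reads in a library and was not tested. Of the 16 family genes tested, 5 were higher and 3 lower at D10 than at D7 by at least 1 without overlap (8.95% and 10.8% of all genes). Nothing is read from these counts, because 10 of the 16 were chosen by their D10 values.

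**Figure D5:**
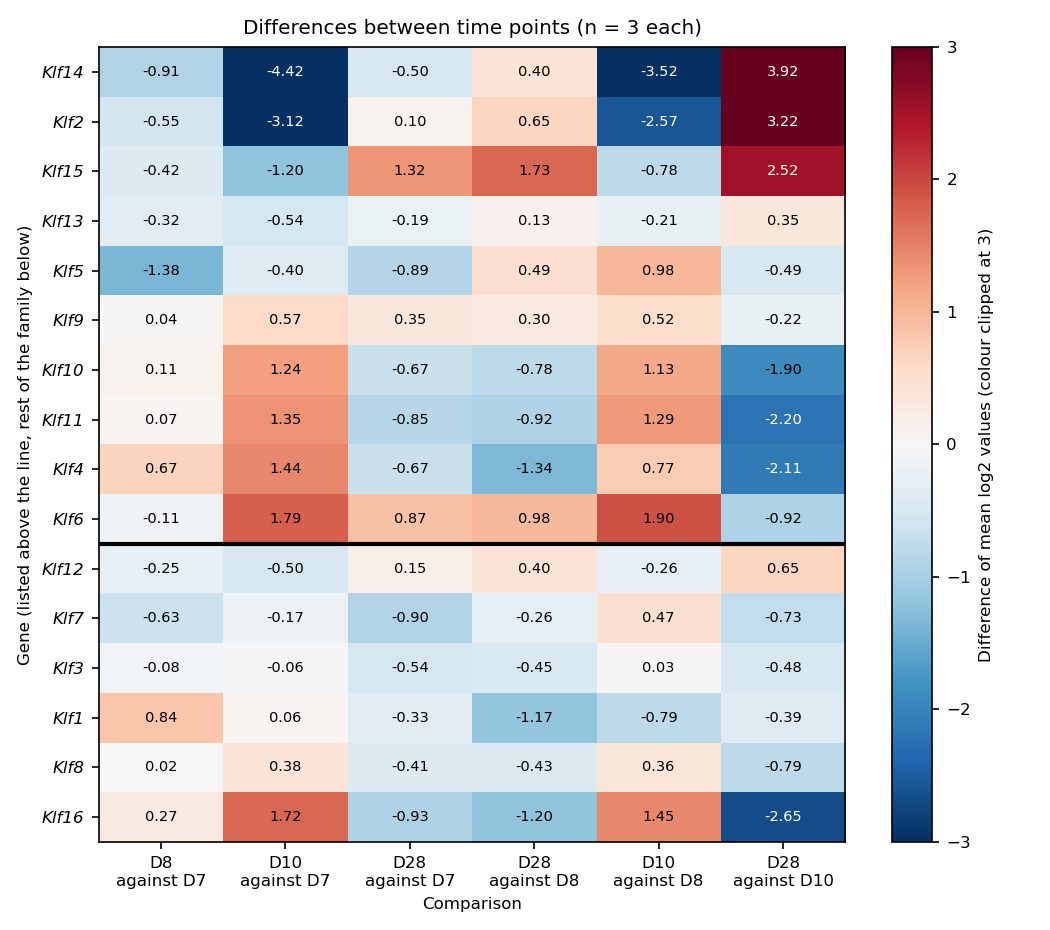
Differences of mean log2 values (n = 3 per time point) for the 10 members, ordered by D10 against D7, and for 6 other Klf genes below the black line, with red for higher, blue for lower and colors clipped at 3. The D10 against D7 column runs from -4.42 for Klf14 to 1.79 for Klf6, and Klf16 at the bottom has 1.72.

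The genes nearest in course to the other members were given by the same measure over the 12 libraries, which include D10. They were Sox8 (0.221) and Nid2 (0.293) for Klf2, Dpt (0.684) and Necab3 (0.725) for Klf14, and Tcf7l1 (0.152) and Acsl1 (0.191) for Klf15. For the genes that were higher at D10, they were Enox1 (0.174) and Jade3 (0.192) for Klf4, Gclc (0.250) and 1810026B05Rik (0.272) for Klf6, Rbpj (0.184) after Klf11 for Klf10, and Ipo7 (0.207) after Klf10 for Klf11. Klf5 had Prkra (0.244) and BC024063 (0.274), Klf9 had Ap3b1 (0.101) and Wasl (0.107), and Klf13 had Zmynd8 (0.0855) and Cdc42bpa (0.0876). Small differences for Klf9 and Klf13 come with their small spread, an SD over the libraries of 0.313 and 0.228. Acsl1, which activates fatty acids, had mean log2 values of 9.41, 8.98, 8.48 and 10.71 in the order of time.

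Genes known to act upstream of the members were read in the same fit, in which 3.23% of all genes were higher and 3.81% lower at D8 than at D7, 8.63% and 8.66% at D28 than at D7, and 10.0% and 9.70% at D28 than at D8. In the ERK5 and MEF2 list, the route that induces Klf2 and Klf4 under flow, 1 of 7 was higher and 0 lower at D28 than at D7. That gene was Mef2a, which rose by 1.06 (standard error 0.10, adjusted p = 5.07e-07, limma). Among 7 genes of the glucocorticoid response, 0 were higher and 2 lower at D8 than at D7 (3.81% of all genes were lower), namely Tsc22d3 (-1.45, adjusted p = 7.84e-07, limma) and Zbtb16 (-1.36, adjusted p = 0.000718, limma). Of the members that respond to glucocorticoids, Klf9 differed by 0.04 in that comparison (adjusted p = 0.88, limma) and Klf15 by -0.42 (adjusted p = 0.0507, limma), with its D8 libraries below those of D7. Both response genes rose again from D8 to D28, by 1.27 and 2.20 (adjusted p = 2.08e-07 and 1.95e-06, limma), with 3 of 7 higher in all (10.0% of all genes), and Klf15 rose by 1.73 there. At D28 against D7, where Klf15 was higher by 1.32, 0 of the 7 were called higher and 1 was called lower (8.63% and 8.66% of all genes). By an unadjusted p under 0.05, 3 of the 7 were higher and 2 lower there (limma, 21.3% and 24.0% of all genes). The part of glucocorticoids in the course of Klf15 was not tested. In the transforming growth factor beta list, 1 of 11 genes was higher and 2 were lower at D28 than at D7 (8.63% and 8.66% of all genes). The lower ones include Skil, a feedback inhibitor of that pathway (log2 fold change -1.65, adjusted p = 2.08e-08, limma). These values stand beside those of Klf10 and Klf11 given above, and the part of the pathway in their courses was not tested. Of 10 clock genes tested, Dbp was the only one called between D7 and D8 (1.05, adjusted p = 0.000144, limma), and between D7 and D28 none was called (4 of 10 at an unadjusted p under 0.05).

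Partners and targets were read likewise. Of 6 tested Sp factors, the sister family that binds the same GC-rich sites, 0 were called by limma in the 3 comparisons without D10 (2, 0 and 1 of 6 at an unadjusted p under 0.05). Of 11 cofactors, 1 was called in them, the acetyltransferase gene Kat2b, which rose by 1.29 from D8 to D28 (adjusted p = 1.99e-06, limma). Among 11 genes described as targets of Klf factors in other tissues, 2 were higher and 2 lower at D8 than at D7 (3.23% and 3.81% of all genes), 4 were higher and 0 lower at D28 than at D7 (8.63% and 8.66%), and 4 were higher and 2 lower at D28 than at D8 (10.0% and 9.70%). Prodh, the proline dehydrogenase gene that Klf15 activates in liver, went from 5.65 ± 0.29 (SD, n = 3) at D7 to 9.41 ± 0.31 (SD, n = 3) at D28, which is higher by 3.76 (standard error 0.24, adjusted p = 1.44e-08, limma). Slc2a4, the insulin-responsive glucose transporter of muscle and fat, went from 6.64 ± 0.26 (SD, n = 3) to 9.15 ± 0.39 (SD, n = 3), which is higher by 2.51 (standard error 0.27, adjusted p = 2.95e-06, limma). At D8 and D10, where Klf15 was below D7, the means were 6.02 and 6.12 for Prodh and 5.24 and 3.42 for Slc2a4. The other genes that rose from D7 to D28, named after their values were seen, were the amino acid gene Bcat2 (1.63, adjusted p = 6.85e-08, limma) and Thbd, the thrombomodulin gene that Klf2 and Klf4 activate in endothelium (2.25, adjusted p = 5.08e-08, limma). Slc2a4 is also a fat cell gene, and its rise came with that of the 6 fat cell markers.

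The markers of other cell types gave the setting of these values. Of 7 bone cell markers, 2 were higher and 2 lower at D28 than at D7 (8.63% and 8.66% of all genes), and the log2 of their sum was 18.90 to 19.38 at D7 and 18.95 to 19.19 at D28. All 6 skeletal muscle markers were lower at D28 than at D7 (8.66% of all genes), with a summed level of 11.56 to 11.86 at D7, 9.89 to 10.66 at D8, 8.35 to 8.89 at D10 and 6.79 to 7.73 at D28. Blood and macrophage markers summed to between 9.65 and 10.46 on the log2 scale in the libraries before D28. At D28 their sum was between 9.71 and 12.11, with a median of 10.09. Genes within the sum moved apart between D7 and D10. Their means at these times were 7.32 and 9.20 for Cd68, 9.84 and 8.73 for Lyz2, and 4.98 and 2.80 for Adgre1. Cd3e was at 0 from D8 on, and at D7 it reached at most 0.74, the level of 1 read in replicate 2. The part of these cells in the courses of the Klf genes was not tested.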

How the data were processed

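RNA from 12 pellet libraries, 3 at each of 4 time points, was analysed from 1 table. Per the submitters' processing notes and the study's methods, reads were trimmed (Trimmomatic 0.36), aligned (HISAT2), annotated (Cufflinks) and counted (HTSeq). The authors deposited log2 values, made from equalized counts after adding 1, with replicates not pooled. The notes name GRCm38 and the supplementary methods a human build, while the table lists mouse symbols. Positions, exon lengths and overlaps are those of GENCODE M21, and promoter sequences those of RefSeq.

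Means of the 4 time points were fitted to all 12 libraries with limma 3.58.1 (R 4.3.3, trended variance prior), for genes that reached a log2 of 1 in 3 or more libraries (10570 failed). A gene was called when its log2 fold change was 1 or more in either direction and its two-sided p, adjusted after Benjamini-Hochberg over all 17674 genes tested, was under 0.05. Python 3.11.15, pandas 2.3.3, numpy 2.4.6 and matplotlib 3.10.9 were used for the rest.

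Named genes were all Klf genes, the 2 largest called changes at D8 or D28 against D7 per list, the 2 genes nearest to each member, and marker genes that a result turns on; marker lists other than fat are given by counts and sums, without the genes this rule names. A gene of another list that the rule names is not reported here. Members and lists were chosen with earlier results of these data known. Alternatives covered the filter, pseudocount, low values, scaling, replicate block, call rule, variance prior, samples fitted and each library left out. No batch or date is given. No pairing of the libraries by replicate number was seen (correlations of same-numbered deviations from -0.06 to 0.07).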

Additional observations from a re-analysis of the deposited data

How the results depend on the processing

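The calls of Klf5 for D8 against D7, Klf15 for D28 against D7, and Klf15 and Klf4 for D28 against D8 held under all 22 alternatives, 12 of which left out 1 library. Without a fold change threshold, 3 members were called for D8 against D7 (Klf4 higher, Klf5 and Klf13 lower), 6 for D28 against D7 (Klf6 and Klf15 higher, Klf4, Klf5, Klf10 and Klf11 lower) and 6 for D28 against D8 (Klf2, Klf6 and Klf15 higher, Klf4, Klf10 and Klf11 lower). Leaving out each library gave 1 to 2 members for D28 against D7, where Klf5 passed without D7 replicate 3 (-1.03), and 2 to 3 for D28 against D8, where Klf6 passed without D8 replicate 1 (1.04) or D28 replicate 2 (1.03). The count of members that differed by at least 1 at D10 was 7, and 5 without D10 replicate 1. With a pseudocount of 0.1 the D10 to D7 difference of Klf14 was -5.78. Median-of-ratios scaling moved the median of all genes by 0.11 for D28 against D10. With it the members' differences ran from -2.07 for Klf11 to 4.02 for Klf14, and without it from -2.20 to 3.92.

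With the replicate block, 1, 1 and 2 members were called in the 3 comparisons without D10, as without it, and the block changed the calls of all genes from 1244 to 1210 for D8 against D7. Of 12 libraries, 3 correlated best with one of their own number, and 0 of 18 same-numbered pairs had a correlation over 0.1. No pairing by number was seen, but these correlations cannot show whether same-numbered libraries shared a culture or litter. Library totals are not kept, so the depth behind values far above the lowest levels is unknown, and Klf14 at D10, with 0, 1 and 4 reads, is the member at those levels.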
